A study of Homo sapiens with 6 samples.

Results

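The IFIT genes (interferon-induced proteins with tetratricopeptide repeats) were followed in SiHa cells, a human cervical squamous carcinoma line, with and without added BRCA1. The 4 members, IFIT1, IFIT2, IFIT3 and IFIT5, were taken by name out of 58174 genes in the deposited expression table, and all 4 were among the 16321 genes that reached an FPKM (fragment counts scaled by the authors for transcript length and sequencing depth) of 0.5 in at least 3 samples. The family was chosen by its measured difference in FPKM between the groups in these same samples, so its group values are given as a description and without a test. RNA from 6 samples was sequenced: 3 OV-BRCA1 samples received the GV230-BRCA1 plasmid and 3 NC samples the empty GV230 plasmid, both with Lipofectamine 3000, and all were collected 48 h later. No untransfected sample was analysed here, so the levels in NC cells are those of cells that also took up plasmid and reagent. All samples came from 1 cell line, and p-values measure only the spread between these samples.

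IFIT genes are normally quiet and are switched on by interferons, or directly by interferon regulatory factors, through short promoter elements known as interferon-stimulated response elements (ISREs). Their products are cytoplasmic proteins built of helical repeats that hold RNA in a central pocket. IFIT1 holds RNA whose cap lacks ribose methylation and keeps it from being translated, IFIT2 and IFIT3 assemble with IFIT1, IFIT3 stabilises IFIT1, and IFIT5 is known for binding RNA with a triphosphate end.

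The members lie side by side on the plus strand of chromosome 10 (hg38, GENCODE 29). IFIT2 (ENSG00000119922) occupies chr10:89283694-89309276, IFIT3 (ENSG00000119917) chr10:89327894-89340971, IFIT1 (ENSG00000185745) chr10:89392546-89406486 and IFIT5 (ENSG00000152778) chr10:89414586-89421001. The promoters of IFIT1, IFIT3 and IFIT5 are shown because the ISRE core occurs in them repeatedly, and that of IFIT2 was not analysed here. RefSeq promoter windows (GRCh38.p14, from 250 bases before to 49 bases after the start base, which counts as 0) were found for IFIT1, IFIT5 and 2 start sites of IFIT3. The RefSeq start bases are 89392623 for IFIT1, 89414568 for IFIT5, and 89327997 and 89332529 for IFIT3, and they differ from the GENCODE starts of the measured transcripts given below, so match positions count from the RefSeq starts only. The core, GAAA and a second GAAA with any 2 bases between them, was searched on both strands, and every match was on the minus strand, so it reads as TTTC, 2 bases and TTTC below. Capitals mark the matches in the 200 bases from -180 to 19 of each plus strand.
IFIT3 upstream start, chr10:89327817-89328016: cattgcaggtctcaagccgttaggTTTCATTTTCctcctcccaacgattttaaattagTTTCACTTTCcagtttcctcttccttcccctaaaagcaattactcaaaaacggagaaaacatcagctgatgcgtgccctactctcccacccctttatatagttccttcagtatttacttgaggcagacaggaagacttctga
IFIT3 internal start, chr10:89332349-89332548: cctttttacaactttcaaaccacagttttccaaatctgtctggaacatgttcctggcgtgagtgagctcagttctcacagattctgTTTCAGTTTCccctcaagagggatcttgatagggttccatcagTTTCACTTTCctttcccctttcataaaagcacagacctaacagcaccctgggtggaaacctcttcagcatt
IFIT1, chr10:89392443-89392642: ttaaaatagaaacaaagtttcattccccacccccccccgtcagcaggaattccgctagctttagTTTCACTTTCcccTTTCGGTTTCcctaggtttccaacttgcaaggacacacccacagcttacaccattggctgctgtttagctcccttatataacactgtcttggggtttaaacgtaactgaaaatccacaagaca
IFIT5, chr10:89414388-89414587: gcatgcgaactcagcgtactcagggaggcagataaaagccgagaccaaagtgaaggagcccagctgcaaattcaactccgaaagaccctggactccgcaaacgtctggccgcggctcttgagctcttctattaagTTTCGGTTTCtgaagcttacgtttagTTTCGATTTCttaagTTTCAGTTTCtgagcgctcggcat

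The IFIT1 window held 2 matches, at -116 to -107 and -103 to -94, separated by 3 bases. Each IFIT3 window also held 2, at -156 to -147 and -122 to -113 of the upstream start and at -94 to -85 and -51 to -42 of the internal start. In IFIT5 there were 3 matches, all close to the start site, at -45 to -36, -19 to -10 and -4 to 5. Among 35116 promoter windows of the same length, 3.57% held at least 1 match, 0.259% at least 2 and 0.037% at least 3.

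One form of the core, GAAAGTGAAA, was present once in the IFIT1 window and once in each IFIT3 window, and in 0.202% of all windows. It was not in the IFIT5 window, whose 3 matches read GAAACCGAAA, GAAATCGAAA and GAAACTGAAA. A longer form, the core followed directly by CT and so overlapping it, matched once in IFIT1, once at each IFIT3 start and 3 times in IFIT5, against 0.273% of all windows with a match. The window of IFIT1B, a related gene that lies between IFIT3 and IFIT1, held no match of any of these forms. These are matches of letters in a window and were not measured as bound sites.

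**Figure D1:**
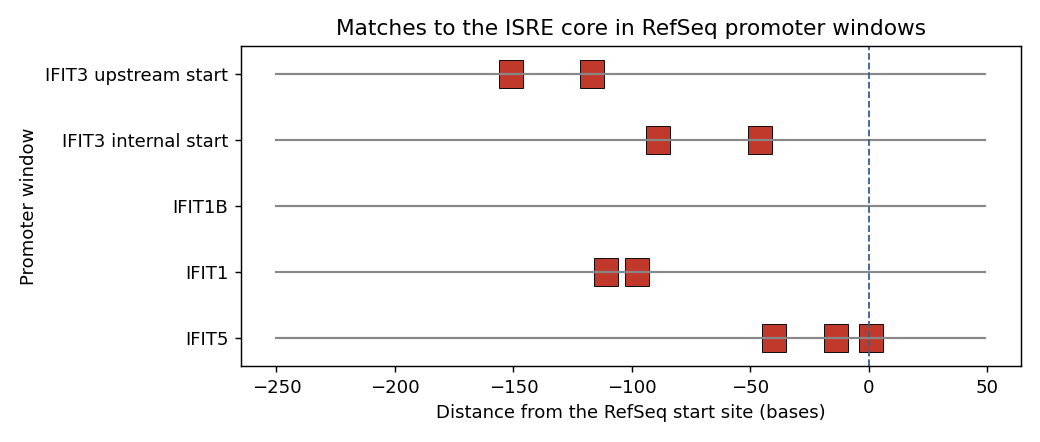
Position of each match to the ISRE core (red boxes) in the RefSeq promoter windows of the IFIT genes, in bases from the start site (dashed line). IFIT1 and both IFIT3 windows each hold 2 matches, IFIT5 holds 3, of which the last spans the start site, and IFIT1B holds 0.

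All 4 members were far more abundant in OV-BRCA1 cells, by 14.35-fold for IFIT1, 17.37-fold for IFIT2, 17.59-fold for IFIT3 and 3.262-fold for IFIT5 as ratios of the mean FPKM. Within each group, the samples lay close together, and in no member did the groups overlap. Over all tested genes, 35.3% had a Benjamini-Hochberg adjusted limma p below 0.05, 2.89% also had a log2 fold change above 1 and 1.1% one below -1 (472 and 179 genes, or 764 and 516 with a pseudocount of 0.1 in place of 1), and 23.4% had every OV-BRCA1 sample above every NC sample. These shares are given only for scale, since the contrast was used to choose the family. In bulk RNA, a larger share of responding cells and more RNA per cell cannot be told apart.

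IFIT1, the sensor of incompletely methylated caps, was the most abundant member. Its FPKM was 995.6, 956.0 and 980.2 with added BRCA1 and 66.95, 68.35 and 69.01 with the empty plasmid. The lowest OV-BRCA1 sample was 13.85 times the highest NC sample. Means were 977.3 ± 20 and 68.1 ± 1.052 (SD, n = 3 each), a difference of 3.82 in log2(FPKM + 1) with a standard error of 0.04. By mean FPKM IFIT1 ranked 975 among the tested genes in NC cells and 38 in OV-BRCA1 cells.

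IFIT3, the partner that stabilises IFIT1, came next in level. In the OV-BRCA1 samples its FPKM was 456.8, 447.1 and 452.0, and in the NC samples it was 25.8, 25.5 and 25.78. The 3 values of each group were nearly equal, with a coefficient of variation of 1.081% in OV-BRCA1 and 0.6592% in NC cells. For comparison, the median tested gene with an FPKM of 50 to 1000 varied by 4.73% between OV-BRCA1 samples, and the median gene at 5 to 50 by 7.21% between NC samples. The difference was 4.08 (SE 0.04) in log2(FPKM + 1), the largest of the 4 and rank 8 of all tested genes.

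IFIT2, which binds IFIT3 and has been tied to cell death as well as to antiviral defence, stood at 247.8, 241.3 and 255.3 FPKM in OV-BRCA1 cells and at 14.19, 13.99 and 14.67 in NC cells. Its difference of 4.03 (SE 0.05) ranked 10. From rank 5051 by level in NC cells it moved to 214. Of its exonic bases, 421 of 4101 also lie in exons of other genes, among them AL353751.1 on the same strand and LIPA on the opposite strand, so a part of the IFIT2 signal could not be assigned to it alone. Exons of IFIT1, IFIT3 and IFIT5 shared no base with another gene.

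IFIT5, the member known for triphosphate RNA, was the lowest and differed least. OV-BRCA1 samples gave 23.83, 25.62 and 25.49 FPKM and NC samples 8.099, 7.829 and 7.045. The means were 24.98 ± 0.9986 and 7.658 ± 0.5474 (SD, n = 3 each), and the difference of 1.59 (SE 0.07) ranked 213 of the tested genes. In OV-BRCA1 cells IFIT5 thus reached about the level that IFIT3 had in NC cells.

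**Figure D2:**
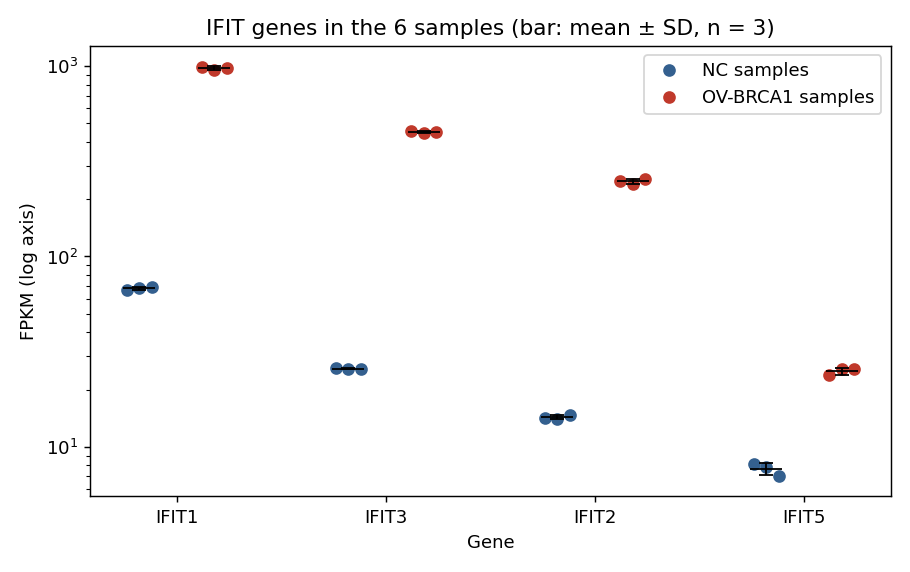
FPKM of the 4 IFIT genes in each NC sample (blue) and OV-BRCA1 sample (red) on a log axis, with the mean and SD of 3 samples as black bars. The groups are separate for every gene, and the order IFIT1, IFIT3, IFIT2, IFIT5 holds in both groups.

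IFIT1 was above IFIT3, IFIT3 above IFIT2 and IFIT2 above IFIT5 in all 6 samples, and no neighbouring ranges overlapped within a group. The summed FPKM of the family stood at 1724, 1670 and 1713 after BRCA1 transfection and at 115.0, 115.7 and 116.5 after the empty plasmid. That was 0.371 ± 0.00627% of all FPKM in OV-BRCA1 cells and 0.024 ± 0.000375% in NC cells (SD, n = 3 each).

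The make-up of the family differed between the groups as well. IFIT1 formed 57.4 ± 0.298% of the family FPKM in OV-BRCA1 and 58.8 ± 0.563% in NC cells, while IFIT3 formed 26.6 ± 0.198% and 22.2 ± 0.201%. IFIT2 formed 14.6 ± 0.288% and 12.3 ± 0.246%, and IFIT5 1.47 ± 0.078% and 6.62 ± 0.513% (SD, n = 3 each). The ratio of IFIT3 to IFIT2 was 1.84, 1.85 and 1.77 in OV-BRCA1 and 1.82, 1.82 and 1.76 in NC samples, so these values overlapped. IFIT1 to IFIT3 was 2.18, 2.14 and 2.17 against 2.6, 2.68 and 2.68, and IFIT2 to IFIT5 was 10.4, 9.42 and 10.0 against 1.75, 1.79 and 2.08, in both cases without overlap. IFIT2 and IFIT3 were thus the pair that kept its proportion. They are also the closest in coding sequence, but the next closest pair, IFIT1 and IFIT5, did not keep its proportion. A link was not tested.

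Aligned coding sequences were 72.7% identical between IFIT2 and IFIT3, 67.2% between IFIT1 and IFIT5, and 60.6% to 63.6% in the other 4 pairs. Cross-assignment of reads between members was checked by their shared stretches of 100 bases. IFIT1, IFIT3 and IFIT5 transcripts shared none with any other gene, and IFIT2 shared 257 of 4096 (6.27%), all with AL353751.1. No such stretch was common to 2 members.

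Other genes of the name were nearly silent and none was tested. IFIT1B (ENSG00000204010, chr10:89378056-89385205) measured 0.1379, 0.09163 and 0.1503 FPKM with added BRCA1 and 0, 0 and 0.04341 with the empty plasmid. The pseudogene IFIT1P1 was listed above 0 in 1 sample of each group, at 0.1073 and 0.03598, and IFIT6P only in 2 NC samples, at 0.009139 and 0.001752. The number of fragments behind such low values was not recovered.

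The transcripts from the 2 start sites of IFIT3 differed between the groups by unequal amounts. The transcript from the upstream start (ENST00000371818, first base 89327894) measured 254.2, 250.1 and 242.2 FPKM in OV-BRCA1 and 20.07, 18.67 and 22 in NC samples, a ratio of means of 12.3. The transcript from the internal start (ENST00000371811, first base 89332484) measured 202.6, 197.0 and 209.8 against 5.727, 6.824 and 3.782, a ratio of 37.3. The internal start thus carried 44.4%, 44.1% and 46.4% of IFIT3 in OV-BRCA1 samples and 22.2%, 26.8% and 14.7% in NC samples, and the groups did not overlap.

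Assignment of fragments to overlapping transcripts limits this comparison. Of 7392 genes with at least 2 expressed transcripts, 18.9% had non-overlapping shares of their most abundant transcript, and 4.0% did so with a difference at least as large as that of IFIT3, whose upstream start had a mean share of 55.1% in OV-BRCA1 and 78.8% in NC samples. The share of IFIT3 varied by 2.36 percentage points between OV-BRCA1 samples and by 12.1 between NC samples. In the neighbouring gene LIPA, the main transcripts swapped within each group: ENST00000456827 measured 59.76, 57.89 and 0 FPKM in OV-BRCA1 and 0, 0 and 40.84 in NC samples, and ENST00000336233 measured 3.823, 4.913 and 56.56 against 42.83, 38.91 and 3.344.

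**Figure D3:**
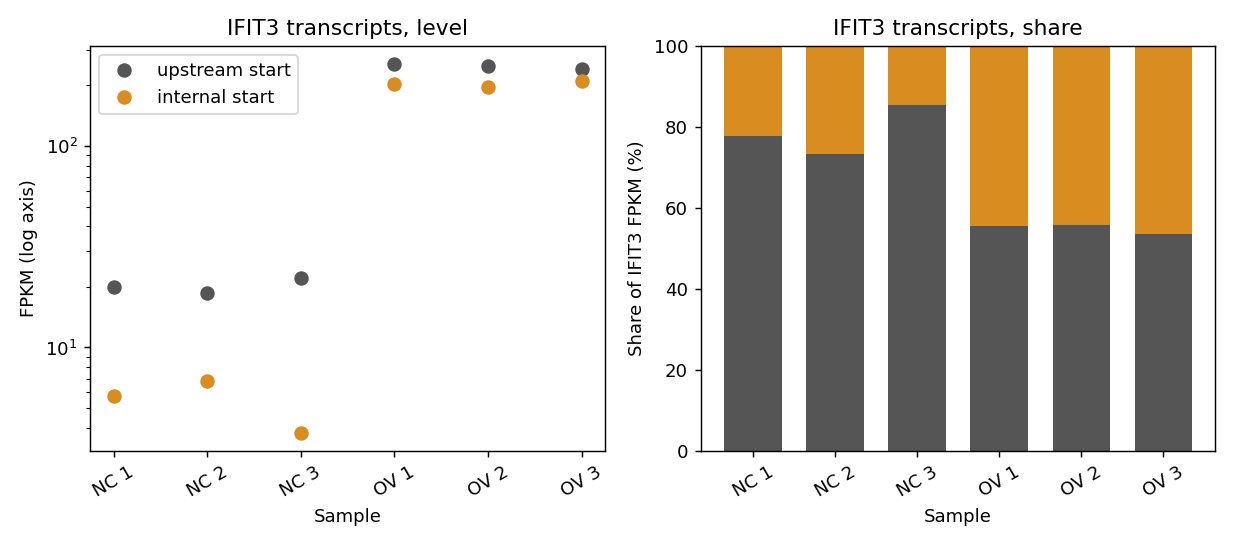
Left, FPKM of the 2 IFIT3 transcripts in each sample on a log axis; right, their shares of IFIT3 FPKM in percent (gray, upstream start; orange, internal start; NC, empty plasmid; OV, OV-BRCA1). The internal start holds 14.7% to 26.8% in NC and 44.1% to 46.4% in OV-BRCA1 samples.

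The other members were dominated by 1 transcript each. ENST00000371804 made up 98.3% to 99.7% of IFIT1 and ENST00000611722 made up 94.7% to 98.1% of IFIT2 over the 6 samples, and IFIT5 has 1 transcript, ENST00000371795. A second IFIT1 transcript, ENST00000546318, measured 3.234, 16.38 and 3.276 FPKM in OV-BRCA1 and 0.5797, 0.6447 and 0.6088 in NC samples, with OV-BRCA1 sample 2 apart from the rest. A minor IFIT2 transcript, ENST00000371826, measured 4.751, 4.752 and 4.951 against 0.1534, 0.0669 and 0.1233.

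To ask whether the genes around the cluster moved with it, the protein-coding genes within 500 kb of the cluster were examined. Of 11 such genes, 6 were tested: 2 were higher, 1 was lower and 3 did not pass (limma, Benjamini-Hochberg adjusted p below 0.05), against 16.4% higher and 18.9% lower among all tested genes. Their median difference was 0.415 in log2(FPKM + 1), against -0.04 over all tested genes. None of the 6 came near the size of IFIT1, IFIT2 or IFIT3.

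STAMBPL1, which encodes a deubiquitinase, was 18.5 ± 1.55 in OV-BRCA1 and 7.61 ± 0.108 FPKM in NC cells (log2 difference 1.18, limma adjusted p = 0.000133). LIPA, the lysosomal acid lipase gene of which 1 minor transcript (ENST00000371837) spans IFIT2, IFIT3 and IFIT1 on the other strand, was 64.0 ± 4.16 and 42.7 ± 2.6 (0.57, limma adjusted p = 0.00179). Both calls were lost when the most abundant transcript replaced the gene sum, with a difference of 0.73 and adjusted p = 0.268 for STAMBPL1, and 2.14 and 0.569 for LIPA. ACTA2, the smooth muscle actin gene, fell from 9.07 ± 0.817 to 4.91 ± 0.585 (-0.77, limma adjusted p = 0.00253), and 30.1% of its exonic bases lie opposite exons of other genes.

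FAS, a death receptor gene, measured 23.2, 12.0 and 25.4 FPKM in OV-BRCA1 and 17.8, 6.39 and 5.86 in NC samples, so the groups overlapped (1.04, limma adjusted p = 0.124). NC sample 1 stood apart. Without it the limma adjusted p was 0.0231 for FAS and 0.0392 for PANK1. PANK1, which encodes a pantothenate kinase, did not pass with all samples (0.26, limma adjusted p = 0.177). KIF20B, a kinesin gene, did not pass (-0.16, limma adjusted p = 0.258). LIPM and ANKRD22 were listed at 0 in every sample, and SLC16A12 and CH25H, the cholesterol 25-hydroxylase gene, stayed below the filter. CH25H measured 0.241, 0.174 and 0.174 in OV-BRCA1 and 0, 0 and 0.031 in NC samples.

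**Figure D4:**
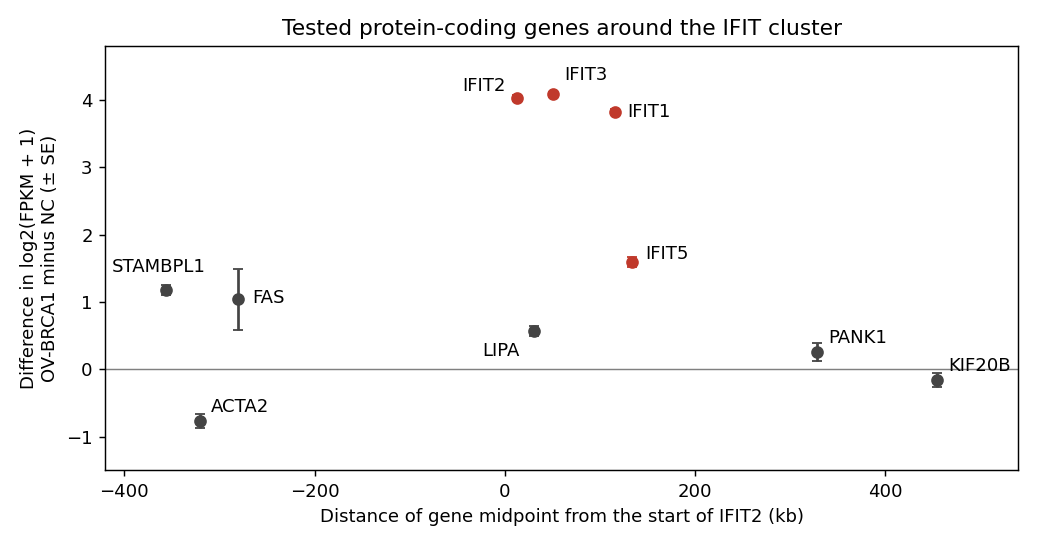
Difference in log2(FPKM + 1) between OV-BRCA1 and NC cells, with its standard error, for the IFIT members (red) and the tested protein-coding neighbours (gray), by distance of the gene midpoint from the start of IFIT2 in kb. IFIT1, IFIT2 and IFIT3 lie at 3.82 to 4.08, IFIT5 at 1.59 and the neighbours between -0.77 and 1.18.

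The pathway upstream of the IFIT genes was read from its ligands to its factors. The gene lists from here on were chosen with earlier results of these data known. Their counts and p-values therefore describe the groups, and the shares over all tested genes are given only for scale. Only 2 of 21 interferon genes were tested. IFNL1, a type III interferon gene, measured 3.76, 2.68 and 2.29 FPKM with added BRCA1 and had a listed value of 0 in every NC sample, so it passed the filter through the OV-BRCA1 group alone and its test (1 gene called higher) carries no weight. IFNE did not pass (0.06, limma adjusted p = 0.687). IFNB1, named after its values were seen, was below the filter at 0.686, 0.774 and 0.479 in OV-BRCA1 and 0.143, 0.0641 and 0 in NC samples.

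Of 8 receptor and ISGF3 genes (ISGF3 being the factor complex that binds the ISRE), 3 were higher, 2 lower and 3 did not pass, with a median difference of 0.16 (16.4% higher and 18.9% lower over all tested genes). STAT2 rose from 50.76 ± 3.721 to 97.35 ± 4.075 FPKM (0.93, limma adjusted p = 0.000218). IRF9, the DNA-binding subunit, rose from 37.45 ± 2.159 to 62.57 ± 4.337 (0.72, limma adjusted p = 0.000745), although 48.4% of its exonic bases are shared with AL136295.5 and with the most abundant transcript the difference was 1.54 and the call was lost (adjusted p = 0.0601).

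Changes in receptor and kinase genes were smaller. IFNLR1, the type III receptor chain, was 2.72 ± 0.111 against 1.78 ± 0.298 (0.42, limma adjusted p = 0.0212), and this call was lost without OV-BRCA1 sample 1 or 3 or NC sample 2 or 3, with adjusted p from 0.0539 to 0.0676, with the replicate block (0.0528) and without the filter on low values (0.0621). The kinase genes JAK1 (-0.28, limma adjusted p = 0.0053) and TYK2 (-0.58, limma adjusted p = 0.0122, or -1.07 and 0.211 with the most abundant transcript) were lower. IFNAR1 (-0.11), IFNAR2 (-0.19) and IL10RB (0.64) did not pass, with limma adjusted p = 0.465, 0.362 and 0.0975. IL10RB passed without OV-BRCA1 sample 1 (0.94, adjusted p = 0.00352).

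Of 18 tested genes for sensors of foreign nucleic acid and the factors that relay them, 12 were higher, 1 was lower and 5 did not pass (median difference 0.77), against 16.4% higher and 18.9% lower over all tested genes. DDX58, which encodes the RNA sensor RIG-I, rose from 18 ± 0.503 to 142 ± 3.18 FPKM (2.91, limma adjusted p = 1.24e-06). IFIH1, the MDA5 gene, rose by 2.57 (limma adjusted p = 4.12e-06). The DNA sensor gene IFI16 rose by 1.64 (limma adjusted p = 1.05e-05). AIM2, another DNA sensor gene, measured 6.64, 5.48 and 6.59 FPKM with added BRCA1 and 0.275, 0 and 0.245 with the empty plasmid, and TLR3, an endosomal RNA sensor gene named after its values were seen, measured 1.83, 2.87 and 3.01 against 0.619, 0.407 and 0.46. Both are among the 12, although without the OV-BRCA1 group neither would have passed the filter. The gene that was lower was MAVS, the adaptor of the RNA sensors, at 5.38 ± 0.312 against 7.5 ± 0.218 (-0.41, limma adjusted p = 0.00633), named after its values were seen.

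The antiviral effectors that work beside the IFIT proteins were higher in 27 of 28 genes, with a median difference of 2.13 (-0.04 and 16.4% higher over all tested genes). This list too was chosen with earlier results of these data known, so its count is a description. MX1, a dynamin-like GTPase that traps viral nucleocapsids, rose from 20.3 ± 0.0835 to 251 ± 4.3 FPKM (3.57, limma adjusted p = 2.23e-07). RSAD2, which encodes viperin, rose by 4.36 (limma adjusted p = 2.47e-06), a larger difference than that of any IFIT gene. OAS3, an oligoadenylate synthetase gene, and ISG15, a ubiquitin-like modifier, rose by 2.0 and 2.39 (limma adjusted p = 2.47e-06 and 2.68e-06).

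Of 10 negative regulators of interferon signalling, 9 were tested, 3 were higher and 6 did not pass (median difference -0.05), against 16.4% higher over all tested genes. USP18, which removes ISG15 and blocks the type I receptor, rose by 2.38 (limma adjusted p = 3.36e-06), TRIM21, an antibody receptor and ubiquitin ligase, by 1.43 (limma adjusted p = 3.43e-05) and SOCS1, an inhibitor of the JAK kinases, by 0.81 (limma adjusted p = 0.00417). SOCS3, PIAS1, PTPN2, PTPN6, PTPN11 and ATG5 lay between -0.19 and 0.01 with limma adjusted p from 0.0745 to 0.935, and RNF125 was below the filter.

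Next came the enzymes that make or remove the cap, the structure that IFIT1 reads. Of 15 genes for cap formation and decapping, 2 were higher, 2 lower and 11 did not pass (median difference 0.04), while 35.3% of all tested genes were called in either direction. The decapping cofactor DCP1A rose by 0.62 (limma adjusted p = 0.00108) and the exonuclease XRN1 by 0.43 (limma adjusted p = 0.0231). DXO, which removes incomplete caps, and PCIF1, a cap adenosine methyltransferase, fell by 0.40 and 0.24 (limma adjusted p = 0.0161 and 0.0342). DCP1A alone of these 4 kept its call when any single sample was left out. The limma adjusted p of DXO was 0.132 with the most abundant transcript (difference -0.63) and 0.053 without NC sample 3 (-0.35). For XRN1 it was 0.0537 to 0.0689 without OV-BRCA1 sample 3, NC sample 2 or NC sample 3, and 0.0509 without the filter. For PCIF1 it was 0.0689 to 0.0925 without any single sample other than OV-BRCA1 sample 1. The PCIF1 call was also lost with median-of-ratios scaling (0.0534) and with the replicate block (0.0843).

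Among 20 genes of cap-binding and eIF3 factors, the translation machinery with which the IFIT proteins interfere, 2 were higher, 2 lower and 16 did not pass (median difference 0.01), against the 16.4% higher and 18.9% lower over all tested genes. EIF4E2, a cap-binding repressor, was lower (-0.28, limma adjusted p = 0.0121, or -0.35 and 0.13 with the most abundant transcript). The eIF3 subunit genes EIF3G (0.20, limma adjusted p = 0.02), EIF3M (0.33, limma adjusted p = 0.023) and EIF3C (-0.15, limma adjusted p = 0.0415) each lost the call without at least 4 of the 6 samples, EIF3C without any of them. Their adjusted p then lay between 0.0509 and 0.117. The replicate block also ended the calls of EIF3G and EIF3C (limma adjusted p = 0.0534 and 0.105). That of EIF3C was lost as well with median-of-ratios scaling (0.0925) and the most abundant transcript (0.0905), and that of EIF3M without the filter (0.0523). Of the 4 calls in this list, that of EIF4E2 held without any single sample. EIF4E, the cap-binding protein gene, and EIF4G1, the scaffold gene, named after their values were seen, did not pass (0.55 and 0.36, limma adjusted p = 0.0581 and 0.0514). Both passed without OV-BRCA1 sample 1 (0.76 and 0.49, limma adjusted p = 0.00314 and 0.00522) and with median-of-ratios scaling (limma adjusted p = 0.0495 and 0.0403).

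**Figure D5:**
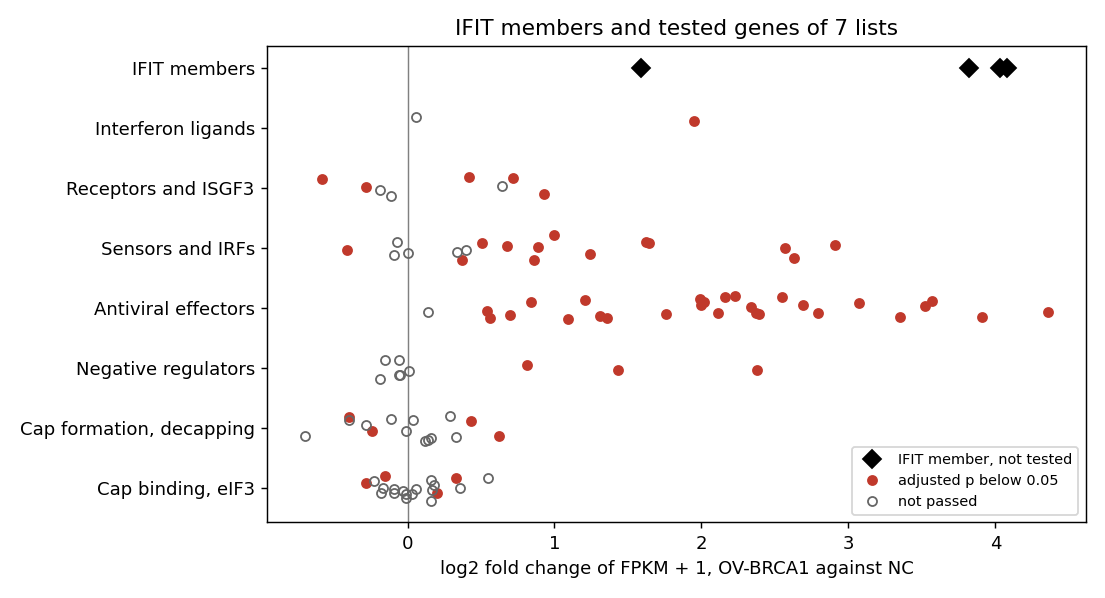
Difference in log2(FPKM + 1) between OV-BRCA1 and NC cells for the 4 IFIT members (diamonds, not tested) and the tested genes of the 7 lists (red, limma adjusted p below 0.05; open, not passed). The antiviral effectors have a median of 2.13 and the cap and translation lists medians of 0.04 and 0.01.

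The ISRE core of the IFIT promoters was also counted over these lists. It was in the promoters of 16 of 23 effector genes with a window (69.6%), 5 of 18 ligand genes (27.8%), 3 of 12 sensor genes (25.0%), 2 of 8 negative regulators (25.0%), 2 of 15 translation genes (13.3%), 0 of 7 receptor and ISGF3 genes and 0 of 12 cap genes. Over all 27305 genes with a window, 4.38% held a match.

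Among genes outside the family, those with the pattern most like each member were found by Euclidean distance over the 6 samples, in log2(FPKM + 1) after subtraction of the NC mean. Nearest of these to IFIT1 were LAMP3 (0.211), TRIM22 (0.36) and SERPINB2 (0.403). Nearest to IFIT2 were LINC02158 (0.232), CXCL10 (0.256) and TRIM22 (0.289), and nearest to IFIT3 were CXCL10 (0.239), LINC02158 (0.263) and CXCL8 (0.273). CXCL10, LINC02158 and SERPINB2 were below 0.5 FPKM in every NC sample (means 0.314, 0.32 and 0.38) and passed the filter through the OV-BRCA1 group (22.1, 21.4 and 16.0). LAMP3 and TRIM22 were also low in NC cells (29.4 against 1.19 and 42.4 against 1.79). The nearness of these 5 genes rests on the pseudocount of 1, which shrinks the differences of low genes. IFIT5 was closest to CLDN1 (0.07), PROCR (0.121) and NAMPT (0.143). Between members, the distance was 0.119 for IFIT2 and IFIT3, 0.358 for IFIT1 and IFIT2, 0.455 for IFIT1 and IFIT3, and 3.879 to 4.33 from IFIT5 to the others.

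BRCA1 itself measured 35.74, 40.77 and 34.89 FPKM in OV-BRCA1 and 20.1, 14.88 and 21.68 in NC samples (0.95, limma adjusted p = 0.00373), and GAPDH did not pass (0.03, limma adjusted p = 0.586). Of 10 epithelial markers KRT7, KRT8, KRT17 and KRT18 were strongly expressed, KRT5, KRT19 and TP63 were below the filter, and the summed FPKM was 3210 to 3360 in OV-BRCA1 and 3590 to 3710 in NC samples. Of the 7 tested, 4 were higher (KRT6A, EPCAM, KRT18 and KRT8), KRT17 was lower and 2 did not pass. Over all tested genes, 16.4% were higher and 18.9% lower. KRT6A was below the filter in every NC sample. The leukocyte gene PTPRC was listed at 0, although the sum of 8 leukocyte markers was 31.5 to 37.4 against 22.7 to 24.6, nearly all from CD68 (26.3 against 3.43, with 81.7% of its exonic bases shared with AC016876.2) and CD14 (7.79 against 19.4). CLEC4C and GZMB, markers of the interferon-producing plasmacytoid dendritic cells, were listed at 0, and that 4-gene sum was 2.99 to 3.6 against 1.31 to 1.94, mostly IL3RA. Summed fibroblast markers were 3.18 to 3.71 against 6.06 to 6.74, nearly all COL1A1 (3.28 against 6.39), with LUM listed at 0. Endothelial markers were 0.761 to 1.45 against 0.629 to 0.788, nearly all PECAM1 (1.02 against 0.703), with VWF and KDR listed at 0. Of the tested non-epithelial markers, CD68 (2.63) and IL3RA (0.76) were higher (limma adjusted p = 9.75e-05 and 0.00452). CD14 (-1.22) and COL1A1 (-0.79) were lower (limma adjusted p = 0.000594 and 0.00106), and PECAM1 did not pass (0.23, limma adjusted p = 0.264). The part of these markers in the IFIT values was not tested.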

How the data were processed

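The authors deposited FPKM values per transcript for 6 SiHa samples. Their processing notes name FastQC, HISAT2 and hg38; versions, the counting tool, its annotation and its use of strand are not given in the sources used here. The study tested counts with DESeq, which the FPKM do not allow. FPKM of 199167 transcripts were summed per gene (58174 genes); 198868 were found in GENCODE 29, 98.7% of them at the same position. The 6 per-sample files held the same values as the series table. Low values gave whole multiples of a read too rarely (33.1% to 38.2% within 0.1 of a whole number) to recover reads, so the fragments behind each value are not given here and no counting interval is printed.

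Genes that reached 0.5 FPKM in 3 or more samples were compared with limma 3.58.1 (R 4.3.3, trend on) on log2(FPKM + 1), a scale that understates the change of low genes, with Benjamini-Hochberg adjustment over all tested genes. The code was tested on simulated data. The members and lists were chosen with earlier results of these data known. Named were the members and other IFIT genes, BRCA1, STAT2, IRF9, GAPDH, the neighbours, up to 4 genes with the smallest adjusted p per list, all genes of lists of 10 or fewer, and the 3 genes most like each member. Markers were summed as FPKM. In the promoter search, DDX58, TMEM173 and C19orf66 were looked up as RIGI, STING1 and SHFL. Coding nucleotide identity stands in for the planned protein identity. A gene of the pathway is not reported here. Same-numbered samples did not deviate together (correlations -0.024, 0.025 and 0.014), and the main fit used no pairing. These correlations do not show whether same-numbered samples were handled together. Alternatives were a pseudocount of 0.1, no filter, median-of-ratios scaling, a replicate block, the most abundant transcript, and each sample left out.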

Additional observations from a re-analysis of the deposited data

How the results depend on the processing

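Over 11 alternative settings, 253 values of 23 results were recomputed, of which 214 stayed within their limits, 39 moved and 0 reversed. The limit was the pooled within-group SD for the 4 IFIT differences and 1.5 times for the counts. Only the IFIT differences could be labelled reversed, since a count has no sign. Sign changes of single list genes, such as that of ADAR below, are outside this tally. The log2 difference stayed at 3.81 to 3.84 for IFIT1, 4.01 to 4.05 for IFIT2, 4.08 to 4.09 for IFIT3 and 1.53 to 1.62 for IFIT5 when each sample was left out. With a pseudocount of 0.1 it was 4.11 for IFIT2, 4.13 for IFIT3 and 1.69 for IFIT5, and genes with an adjusted limma p below 0.05 and a change above 1 became 764 higher and 516 lower, in place of 472 and 179; a smaller pseudocount shrinks low genes less. Median-of-ratios scaling gave 3.86 for IFIT1 and 4.12 for IFIT3. Taking the most abundant transcript gave 3.56 for IFIT3 and cut the genes with an adjusted p below 0.05 from 5764 to 3291; the cause was not tested beyond the transcript shares given above. Leaving out each sample gave 476 to 486 higher and 166 to 219 lower genes, and 4415 to 4765 with an adjusted p below 0.05. In the cap-binding and eIF3 list (2 higher, 2 lower) there were 1 higher without the filter, 4 higher and 1 lower with scaling, 1 and 1 with the replicate block, and 0 lower with the most abundant transcript; leaving out samples gave 0 to 3 higher and 1 to 2 lower. For cap formation and decapping (2 and 2) it was 1 higher without the filter and 1 lower under scaling, block and most abundant transcript, and 1 to 2 higher and 0 to 2 lower with a sample left out. Interferon ligands had 2 higher without the filter in place of 1, and receptor and ISGF3 genes 1 lower with the most abundant transcript in place of 2. Neighbours of the cluster had 4 higher without the filter, 0 with the most abundant transcript and 2 to 4 with a sample left out (4 without NC sample 1), in place of 2. The replicate block changed no other count beyond 1.5 times. The effector count was 27 higher whichever sample was left out and 24 with the most abundant transcript, where ADAR turned from 0.54 to -1.04 (adjusted p = 0.64) and the sensors had 9 higher in place of 12. Of 61 called genes in the lists and neighbourhood, BRCA1 included, 43 kept their call under every alternative and 7 lost it without some single sample. Among the 43 are IFNL1, AIM2 and TLR3, which would not have passed the filter without the OV-BRCA1 group. Their kept calls carry no weight. The causes of the list changes were not tested. With 3 samples per group, FPKM without counts and unstated strand use, low genes and overlapping genes are the least certain.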

Other observations

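A LIPA transcript that starts 29 bases from IFIT5 on the opposite strand (ENST00000371837, first base 89414557), noticed after its values were seen, measured 1.258, 1.469 and 1.768 FPKM with added BRCA1 and 0.2624, 0.2404 and 0.2129 with the empty plasmid. The groups did not overlap. It is a minor part of LIPA, whose gene sum was 64.0 ± 4.16 and 42.7 ± 2.6 FPKM (SD, n = 3 each). A further IFIT2 transcript, ENST00000638108, whose start at 89283694 lies far upstream of the main one, went against the other transcripts of the family, at 0, 0 and 0.07491 FPKM in OV-BRCA1 and 0.6033, 0.5208 and 0.1695 in NC samples. Both levels are low, and the fragments behind them were not recovered.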
